A study of Mus musculus with 15 samples.

Results

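The IgLON family was examined in RNA sequencing (RNA-seq) libraries of cells sorted as cortical interneurons from mouse embryos labelled as *Lhx6* or *Mtg8* mutant and from their controls. Its 5 members, *Ntm*, *Opcml*, *Lsamp*, *Negr1* and *Iglon5*, were taken by gene name from the deposited tables of normalized counts, which together listed 28391 genes. The family was picked because *Ntm* differed between control and mutant libraries in the *Lhx6* table, so the differences between those groups, and whether the fit over all genes called them, are given here as a description that supports nothing by itself, with no p-value. All 5 members were found in both tables, and all 5 passed the filter on low values in both.

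The cells were sorted for YFP from the cortex of single embryos at embryonic day 14.5, on a mixed C57BL/6/CBA background (C57BL6/CBA in the sample labels). Every embryo carried Nkx2-1-Cre as a transgene and the R26R-YFP reporter, so that YFP marked cells descended from the *Nkx2-1*-expressing progenitors of the medial ganglionic eminence (MGE), the ventral source of many cortical interneurons. The first table held 4 *Lhx6* control libraries (Lhx6+/+) and 5 *Lhx6* mutant libraries (Lhx6-/-). The second held 3 *Mtg8* control libraries (Mtg8+/+) and 3 libraries labelled *Mtg8* mutant (Mtg8-/-). The paper describes the controls as littermates, and both mutations were present in the whole embryo, not only in the sorted cells. The tables were normalized separately, so levels were compared only within a table. Each library held between 12218422 and 22053032 reads assigned to genes. Some libraries share the leading part of their name, namely *Lhx6* controls 1 and 2 with *Lhx6* mutant 6, *Lhx6* mutants 2 and 5, and *Mtg8* controls 1 and 2 with labelled mutant 2. Apart from *Lhx6* mutant 6 and labelled mutant 2, no mutant shares a leading part with a control. The labels do not say whether this marks a litter, so the spread given is that between the embryos as labelled.

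The targeted genes were read first, and they set how the groups are named. *Lhx6*, the LIM-homeodomain factor of postmitotic MGE cells, stood at 5812 to 8441 normalized counts in the *Lhx6* controls and at 236 to 495 in the mutants, 4.57% of the control mean (limma adjusted p = 1.34e-07). *Runx1t1*, the gene that encodes the co-repressor MTG8, was not lower in the libraries labelled *Mtg8* mutant. It stood at 7938 to 10264 normalized counts in the controls and at 12250 to 13934 in the labelled mutants (limma adjusted p = 0.859), so these libraries are called by their label throughout. Whether the reads come from exons outside the targeted stretch was not tested. In the *Lhx6* table *Runx1t1* rose, with a difference of 1.23 ± 0.19 (SE, log2; limma adjusted p = 0.00401).

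The IgLONs are small cell adhesion proteins of the immunoglobulin superfamily. They are tethered to the outer leaflet of the membrane by a glycosylphosphatidylinositol (GPI) anchor and have no cytoplasmic tail. They bind one another as homodimers and heterodimers, on the same cell or between cells, and are known for effects on neurite outgrowth and synapse formation. NTM is neurotrimin, OPCML is also called OBCAM, LSAMP is the limbic system-associated membrane protein, NEGR1 is also called Kilon or neurotractin, and IGLON5 is known as the target of autoantibodies in a human sleep and movement disorder.

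The genes lay on 4 chromosomes of GRCm38. *Ntm* (ENSMUSG00000059974.10) spanned chr9:28994750-29963141 on the minus strand. *Opcml* (ENSMUSG00000062257.13) spanned chr9:27790775-28925410 on the plus strand, so the ends of these genes faced each other across a gap of 69.3 kb. *Lsamp* (ENSMUSG00000061080.11) spanned chr16:39984361-42181679 on the plus strand, *Negr1* (ENSMUSG00000040037.13) chr3:156561794-157316445 on the plus strand, and *Iglon5* (ENSMUSG00000013367.5) chr7:43472904-43490075 on the minus strand. Their exons summed to 8079 bases for *Ntm*, 14519 for *Opcml*, 17213 for *Lsamp*, 10506 for *Negr1* and 2622 for *Iglon5*, and levels of different members were compared after division by these lengths.

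The promoters are shown for the neighbours *Ntm* and *Opcml*, of which *Ntm* was called in the *Lhx6* mutants and *Opcml* was not, and for *Negr1*, the other member called there. RefSeq (GRCm38.p6) gave 7 start sites for the 5 members, and the 250 bases before a start are printed 5' to 3' with each CG dinucleotide in capitals. *Ntm* had a pair of start sites 767 bases apart, the downstream one first here. Both lay about 550 kb inside the gene span of the counting annotation, whose *Ntm* began further upstream.
Ntm, chr9:29412686-29412935, minus strand: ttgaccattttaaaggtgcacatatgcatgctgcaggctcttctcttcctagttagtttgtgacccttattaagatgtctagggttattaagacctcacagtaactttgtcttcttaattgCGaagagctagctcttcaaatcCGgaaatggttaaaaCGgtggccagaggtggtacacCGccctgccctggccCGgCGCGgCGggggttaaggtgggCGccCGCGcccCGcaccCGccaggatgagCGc
Ntm, chr9:29413453-29413702, minus strand: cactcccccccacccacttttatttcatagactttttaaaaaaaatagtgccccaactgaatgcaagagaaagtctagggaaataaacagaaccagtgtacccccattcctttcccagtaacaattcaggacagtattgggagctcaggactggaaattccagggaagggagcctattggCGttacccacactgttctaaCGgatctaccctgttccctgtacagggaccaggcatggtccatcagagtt
Opcml, chr9:27791049-27791298, plus strand: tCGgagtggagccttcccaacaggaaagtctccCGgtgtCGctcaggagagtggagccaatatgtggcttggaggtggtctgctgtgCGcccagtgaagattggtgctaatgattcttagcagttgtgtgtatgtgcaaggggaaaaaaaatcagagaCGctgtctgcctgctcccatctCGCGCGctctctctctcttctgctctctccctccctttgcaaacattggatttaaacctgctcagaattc
Negr1, chr3:156561544-156561793, plus strand: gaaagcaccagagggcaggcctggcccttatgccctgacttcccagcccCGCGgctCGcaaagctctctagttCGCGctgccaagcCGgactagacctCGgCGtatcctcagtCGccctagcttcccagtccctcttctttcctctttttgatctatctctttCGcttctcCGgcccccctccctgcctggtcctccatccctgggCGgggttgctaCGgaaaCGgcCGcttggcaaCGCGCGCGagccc

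The downstream *Ntm* window held 14 CG dinucleotides, the upstream one 2, *Opcml* 8 and *Negr1* 19, against a median of 6 over 32841 RefSeq windows of the same length. The *Lsamp* windows held 12 and 3, and the *Iglon5* window 13. The hexamer TAATTA, a core motif of LIM-homeodomain factors that reads the same on both strands, was found in 0 of the 7 windows, and in 4.84% of all such windows. This says only that these letters are not in these stretches.

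*Ntm* and *Negr1* were higher in every *Lhx6* mutant library than in every control, and *Opcml*, *Lsamp* and *Iglon5* were not separated. By the fit over all genes (limma, adjusted p under 0.05), 2 of the 5 members were called, both higher, where 1.71% of the 16727 genes tested were called in either direction, 1.03% as higher and 0.682% as lower. DESeq2 and edgeR each called the same number of members, where DESeq2 called 3.02% of genes as higher and 1.51% as lower. The values of 2 of the 5 did not overlap between groups, where 6.22% of genes did not, 3.19% with all mutants above all controls and 3.03% with all below. The family was chosen on this contrast, and nothing is read from these counts. In bulk RNA of sorted cells, a change in the number of cells of one type cannot be told apart from a change in RNA per cell.

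*Ntm*, whose product promotes or restrains neurite growth depending on the neuron, had 694, 847, 655 and 560 normalized counts in controls 1 to 4. It had 3529, 3181, 4131, 4471 and 3284 in mutants 1, 2, 3, 5 and 6. The groups were far apart, the lowest mutant being 3.75 times the highest control. Means were 689 ± 119 (SD, n = 4) and 3719 ± 559 (SD, n = 5), a ratio of 5.40, and the difference was 2.43 ± 0.16 (SE) on the log2(normalized count + 1) scale. It ranked 66th from the top by difference among the 16727 genes. The read numbers behind these values ran from 655 to 4615 per library. The spread within a group was modest, with a coefficient of variation of 17.3% in controls and 15.0% in mutants.

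*Negr1*, which acts on neurite outgrowth and synapse number, had 1096, 764, 801 and 763 normalized counts in controls 1 to 4. It had 2328, 1478, 2457, 1558 and 1270 in mutants 1, 2, 3, 5 and 6. The groups did not overlap, but mutant 6 stood only 1.16 times above control 1. Means were 856 ± 161 (SD, n = 4) and 1818 ± 536 (SD, n = 5), and the difference was 1.05 ± 0.21 (SE, log2), lower than that of *Ntm*. The call of *Negr1* was lost without control 2 (1.005), control 3 (1.028) or control 4 (1.004), while its direction was kept in all 9 fits that left out a library.

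*Opcml*, a heterodimer partner of other IgLONs, had 207, 273, 252 and 199 normalized counts in controls 1 to 4. It had 188, 217, 134, 138 and 86.7 in mutants 1, 2, 3, 5 and 6. Here the mutants were mostly the lower ones, with 4 of 5 below every control and mutant 2 within the control range. Means were 233 ± 35.6 and 153 ± 50.7 (SD, n = 4 and 5), with a difference of -0.66 ± 0.27 (SE, log2) that was not called.

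*Lsamp*, a guidance and adhesion protein of limbic circuits, had 257, 298, 206 and 115 normalized counts in controls 1 to 4, and 166, 274, 132, 144 and 147 in mutants 1, 2, 3, 5 and 6. The groups overlapped over most of their range, and the difference of -0.31 ± 0.30 (SE, log2) was not called. *Iglon5* had 62.5, 68.2, 106 and 62.4 in controls 1 to 4, and 135, 87.0, 70.8, 66.8 and 59.4 in mutants 1, 2, 3, 5 and 6. Its groups overlapped as well, with a difference of 0.14 ± 0.31 (SE, log2) and between 48 and 115 reads per library.

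**Figure D1:**
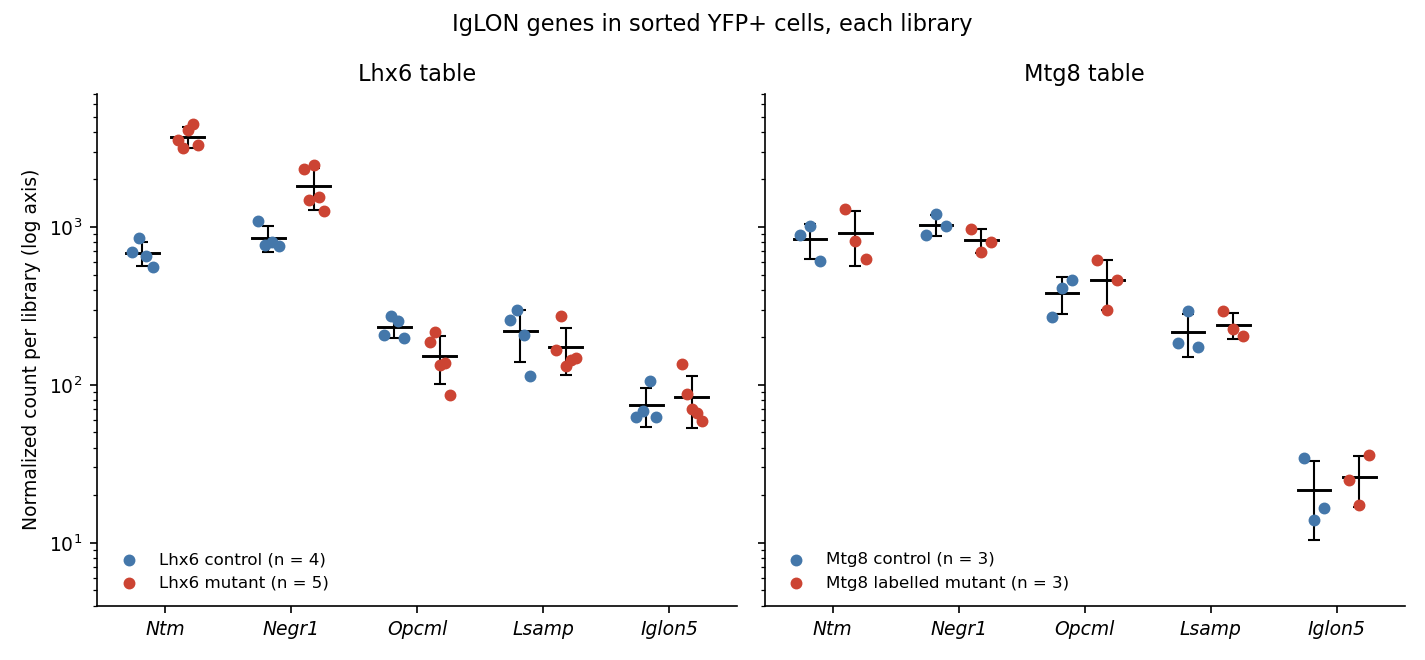
Normalized counts of the 5 IgLON genes in each library, on a log axis, for the *Lhx6* table (left, 4 controls and 5 mutants) and the *Mtg8* table (right, 3 controls and 3 labelled mutants). Points are libraries, horizontal bars group means and error bars the SD. The *Ntm* mutants in the left panel lie between 3181 and 4471, above controls at 560 to 847, and no member separates in the right panel.

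The *Lhx6* mutants differed from the controls in how their libraries were named. The names of 4 of the 5 mutants and 0 of the 4 controls carried a date, and the meaning of this is not given in the labels. Only mutant 6 shared the undated style of the controls, and against them its difference (log2) was 2.27 for *Ntm*, 0.59 for *Negr1*, -1.40 for *Opcml*, -0.48 for *Lsamp* and -0.29 for *Iglon5*. For *Ntm* the dated mutants, at 3181 to 4471 normalized counts, enclosed mutant 6 at 3284. For *Negr1* mutant 6 was the lowest mutant, at 1270 against 1478 to 2457, and with the name style as a covariate the call was lost. For *Opcml* mutant 6 was also the lowest, at 86.7 against 134 to 217. With 1 undated mutant, name style and genotype can be separated only through that library.

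In the libraries labelled *Mtg8* mutant, 0 of the 5 members were called by limma, where 0% of the 16132 genes tested were called. Before adjustment 886 genes of the whole table, 5.49%, had a p under 0.05. DESeq2 called 0.129% of genes as higher and 0.0616% as lower, 21 and 10 genes, edgeR called 1 gene, and each called 0 members. The groups overlapped for all 5 members, where 10.2% of genes did not overlap, 4.68% with the labelled mutants above and 5.52% with them below.

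*Ntm* had 893, 1011 and 605 normalized counts in *Mtg8* controls 1, 2 and 4, and 1296, 821 and 624 in labelled mutants 2, 3 and 4. The ranges lay over each other, and the difference was 0.09 ± 0.29 (SE, log2), with a 95% interval from -0.53 to 0.72. Its sign turned to -0.12 without control 4 and to -0.19 without labelled mutant 2. *Negr1* had 895, 1202 and 1009 in the controls and 975, 693 and 806 in the labelled mutants. Of the labelled mutants, 2 of 3 lay below every control, and the difference was -0.33 ± 0.21 (SE, log2; 95% interval -0.80 to 0.13).

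*Opcml* had 268, 408 and 464 normalized counts in the same controls and 617, 300 and 460 in the labelled mutants, with a difference of 0.25 ± 0.30 (SE, log2). *Lsamp* had 184, 292 and 173 against 292, 226 and 203, a difference of 0.17 ± 0.28. *Iglon5* had 34.7, 13.9 and 16.6 against 24.9, 17.5 and 35.9, a difference of 0.31 ± 0.49. These members overlapped between groups in every case. With 1 library left out, the difference ran from 0.004 to 0.52 for *Opcml* and from 0.026 to 0.41 for *Lsamp*. For *Iglon5* it ran from 0.055 to 0.69, and it was 0.93 with the replicate block. *Iglon5* had 13 to 47 reads per library and the widest 95% interval of the 5, from -0.76 to 1.38. These intervals were not set against the differences in the *Lhx6* table, on which the family was chosen. Within the dated names (2 controls, 1 labelled mutant) and the undated names (1 control, 2 labelled mutants), the difference of *Ntm* was 0.45 and 0.24, that of *Negr1* -0.09 and -0.43, and that of *Opcml* 0.90 and -0.32, so *Opcml* changed direction between the styles.

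**Figure D2:**
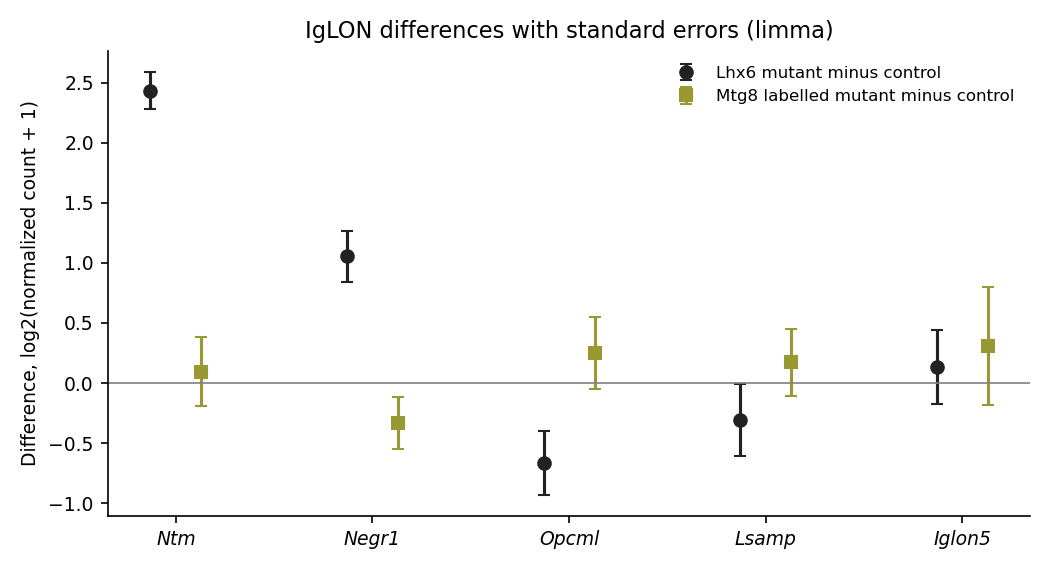
Difference between mutant (in the *Mtg8* table labelled mutant) and control means on the log2(normalized count + 1) scale (vertical axis) for each IgLON gene, with the standard error from limma as bars. Circles are the *Lhx6* table, where *Ntm* stands at 2.43 and *Negr1* at 1.05, and squares the *Mtg8* table, where the 5 values lie between -0.33 and 0.31.

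Levels per kilobase of exon gave the make-up of the family. In the *Lhx6* controls *Ntm* led with 85.3 ± 14.8 normalized counts per kb, and *Negr1* followed with 81.5 ± 15.3 (SD, n = 4), and these neighbours overlapped, *Ntm* being the higher in 2 of 4 libraries. *Iglon5* came next at 28.5 ± 7.99, clear of *Negr1* above and of *Opcml* below, at 16.0 ± 2.45. *Opcml* and *Lsamp*, at 12.7 ± 4.59, overlapped. Without division by length the values fell in the order *Negr1*, *Ntm*, *Opcml*, *Lsamp* and *Iglon5*, with *Negr1* and *Ntm* again overlapping.

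In the *Lhx6* mutants *Ntm* stood alone at the top, with 460 ± 69.2 normalized counts per kb, and was the highest member in 5 of 5 libraries. *Negr1* was at 173 ± 51.1, *Iglon5* at 31.96 ± 11.6, *Opcml* at 10.5 ± 3.49 and *Lsamp* at 10.04 ± 3.36 (SD, n = 5), and only *Opcml* and *Lsamp* overlapped with their neighbour. The summed level of the 5 members per kb was 224 ± 26.2 in controls and 686 ± 98.3 in mutants. *Ntm* made up 35.3 to 43.7% of it in controls and 59.6 to 74.3% in mutants. *Opcml* made up 5.85 to 7.84% of it in controls and 1.06 to 2.49% in mutants. Without *Ntm* the sum was 139 ± 17.3 in controls and 226 ± 58.7 in mutants, most of it *Negr1*. The ratio of *Ntm* to *Opcml* per kb, for genes that lie end to end on chromosome 9, was 4.66 to 6.04 in controls and 26.4 to 68.1 in mutants.

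In the *Mtg8* table the order in controls was *Ntm* at 104 ± 25.9 normalized counts per kb, *Negr1* at 98.5 ± 14.8, *Opcml* at 26.2 ± 6.94, *Lsamp* at 12.6 ± 3.82 and *Iglon5* at 8.28 ± 4.31 (SD, n = 3). *Ntm* overlapped with *Negr1*, and *Lsamp* with *Iglon5*, while *Opcml* was clear of both its neighbours. *Iglon5* was thus last per kb here and in the middle of the *Lhx6* controls, and no test was made of this. The labelled mutants had the same order, with 113 ± 42.8, 78.5 ± 13.5, 31.6 ± 10.9, 13.98 ± 2.68 and 9.96 ± 3.54. The summed level was 249 ± 36.6 in controls and 247 ± 65.1 in labelled mutants, and *Ntm* made up 34.1 to 46.4% and 36.6 to 49.8% of it.

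**Figure D3:**
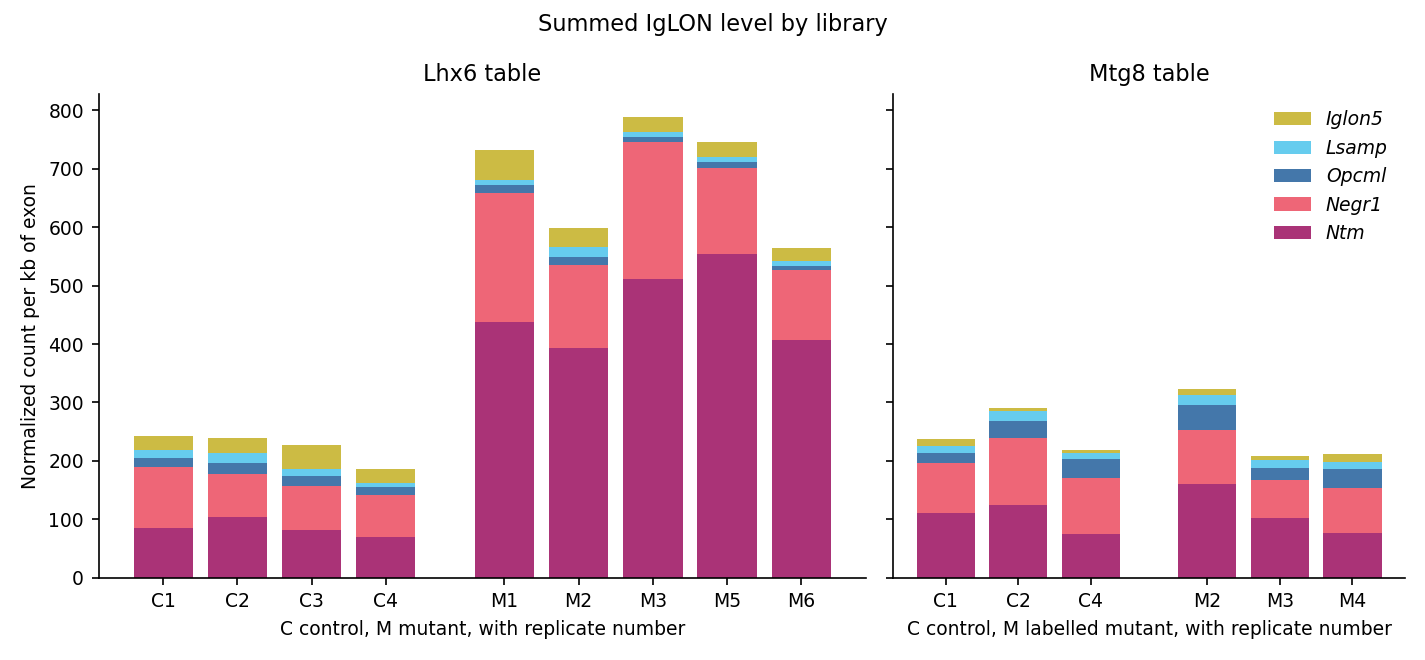
Summed IgLON level in each library, in normalized counts per kb of exon (vertical axis from 0), stacked by gene, with controls (C) and mutants (M, in the *Mtg8* table the labelled mutants) by replicate number. In the *Lhx6* table the controls sum to 186 to 243 and the mutants to 565 to 789, with wider *Ntm* and *Negr1* parts, and in the *Mtg8* table all libraries sum to 208 to 322.

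The wider set of immunoglobulin adhesion genes was read from the same fits, as a list of 43 genes outside the family. Of these, 39 were tested in the *Lhx6* mutants, 2 rose, 1 fell and 36 were not called, against 1.71% called among all genes. DESeq2 called 7 and edgeR 3. An unadjusted p under 0.05 was found for 12 of the 39, and for 12.7% of all genes. All mutants lay above all controls for 5 genes and below for 3, where 3.19% and 3.03% of all genes did so. The list was not tested as a set. The median difference over the 39 was -0.03 (log2), and over all genes -0.04. *Sdk1*, a sidekick protein that matches synaptic partners by homophilic binding, rose from 14.5 to 58.5 normalized counts in controls to 71.8 to 299 in mutants (2.53 ± 0.45, SE, log2; limma adjusted p = 0.0112). Its relative *Sdk2* rose from 17.96 to 34.6 in controls to 58.2 to 87.2 in mutants (1.56 ± 0.31; limma adjusted p = 0.0223). *Chl1*, the L1-family protein known as close homologue of L1, fell from 4512 to 6367 in controls to 1132 to 1701 in mutants (-1.89 ± 0.16; limma adjusted p = 3.05e-05). The count of 2 was 1 without control 1, 3 or 4 or without mutant 2 or 5. It was 3 without mutant 3 and 4 without mutant 6, and the count of 1 was 2 without mutant 3. With the library name style as a covariate, or with the replicate number as a block, the count of higher genes was 0, so both calls were lost. Abundant genes of the list that were not called were *Ncam1* at a control mean of 30010 normalized counts and a difference of 0.41 (limma adjusted p = 0.198), *Bsg* at 5157 with -0.13 (limma adjusted p = 0.771) and *Cadm1* at 3608 with -0.09 (limma adjusted p = 0.785).

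The contactins, which like the IgLONs are held by a GPI anchor, had 0 of 5 tested members called by limma and 0 by edgeR. DESeq2 called 1, and 1 had an unadjusted p under 0.05, as had 12.7% of all genes in the *Lhx6* table. That member was *Cntn1*, named after its values were seen, with a mean of 384 normalized counts in controls and 180 in mutants (-1.20, limma adjusted p = 0.0525). Of the wider list, 40 genes were tested in the *Mtg8* table and 0 were called by limma, DESeq2 or edgeR. An unadjusted p under 0.05 was found for 3 of them, and for 5.49% of all genes in that table. The median difference over the 40 was 0.07, against -0.01 over all genes.

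**Figure D4:**
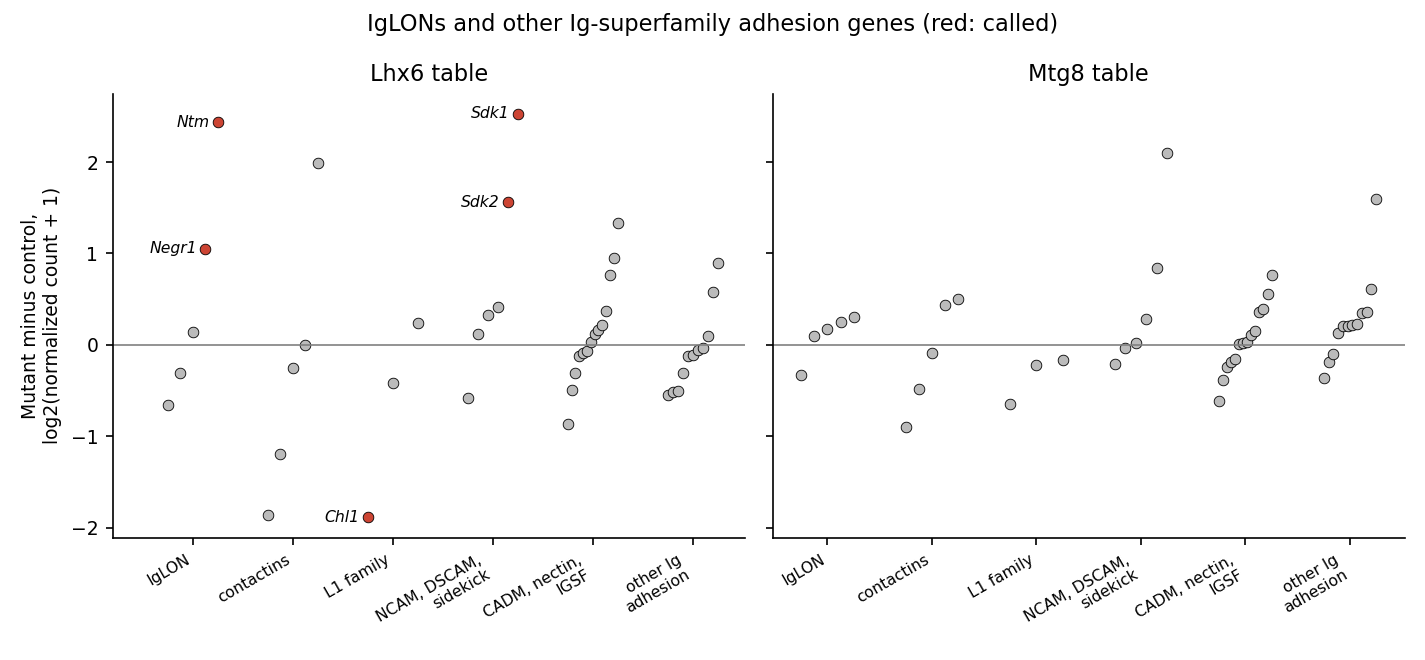
Difference between mutant (in the *Mtg8* table labelled mutant) and control means, log2(normalized count + 1), for the IgLON genes and 5 groups of other immunoglobulin-superfamily adhesion genes in the *Lhx6* table (left) and the *Mtg8* table (right). Each point is a gene. Red, named points were called by limma, namely *Ntm*, *Negr1*, *Sdk1*, *Sdk2* and *Chl1* on the left and 0 genes on the right.

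Genes that make, attach and remodel the GPI anchor, on which every IgLON depends, gave no call. In the *Lhx6* mutants 0 of 26 tested were called by limma, 3 had an unadjusted p under 0.05, as had 12.7% of all genes in that table, and DESeq2 and edgeR called 0, with a median difference of -0.18 (log2). *Pigx*, a subunit of a mannosyltransferase of anchor synthesis, was at 1860 normalized counts in controls and 1910 in mutants, and *Pgap1*, which remodels the anchor, at 1340 and 1197. In the labelled *Mtg8* mutants 0 of 27 were called by limma, 0 had an unadjusted p under 0.05 and DESeq2 and edgeR called 0, with a median of -0.03. The metalloproteases *Adam10* and *Adam17*, which can release IgLONs from the cell surface, and the receptors *Fgfr1*, *Fgfr2* and *Fgfr3* gave 0 calls of 5 by limma in each table, 1 at an unadjusted p under 0.05, and 0 by DESeq2 and edgeR. *Adam10* was at 1890 ± 68.6 normalized counts in *Lhx6* controls and 2047 ± 306 in mutants (SD, n = 4 and 5). *Fgfr1*, at 392 to 479 in controls and 262 to 361 in mutants, had groups that did not overlap (limma adjusted p = 0.298).

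The genes around the members were examined next. Within 1 Mb of a member's span the *Lhx6* table held 112 other genes, of which 56 were tested, 2 rose and 0 fell, against 1.71% called among all genes, with a median difference of -0.09 (log2). Both lay inside *Negr1*, on its strand, and outside its exons. *Gm42946* (chr3:156646320-156648889) went from a mean of 41.7 to 210 normalized counts (2.36 ± 0.45, SE, log2; limma adjusted p = 0.0166), and *Gm43528* (chr3:156737540-156739213) from 7.90 to 55.8. The control mean of *Gm43528* is below the minimum mean of 10, so it entered the test only through the mutants and its call is not read as a result. The annotation gives both as unverified transcripts (TEC), and whether their reads come from unspliced *Negr1* RNA was not tested. The count of higher neighbours was 0 without control 2 or 4 or without mutant 2 or 5. It was 1 without control 3 or mutant 1, and 3 without mutant 3 or mutant 6. With the library name style as a covariate, or with the replicate number as a block, it was 0, so both calls were lost. No exon of another gene in this window overlapped an exon of a member. Of 99 neighbours in the *Mtg8* table, 57 were tested and limma, DESeq2 and edgeR each called 0. An unadjusted p under 0.05 was found for 3 of them, and for 5.49% of all genes in that table.

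The genes most like *Ntm* in the *Lhx6* table were taken as those with the smallest root mean square distance of log2 values, each centred on its control mean, over the 9 libraries, among 10822 genes with a mean of at least 100. They were *Ppm1h*, a protein phosphatase (distance 0.23), *Epha7*, an Eph receptor (0.26), *Slc1a2*, a glutamate transporter (0.27), *Pag1*, a membrane adaptor of Src-family kinases (0.37), and *Gabrg3*, a subunit of the GABA-A receptor (0.39). *Epha7* had 638 ± 134 normalized counts in controls and 3546 ± 1145 in mutants (SD, n = 4 and 5). *Slc1a2* went from 297 ± 22.6 to 1679 ± 364. The control means of *Ppm1h* (75.8) and *Gabrg3* (80.3) were below 100, so these genes passed that minimum only through the mutants. With the minimum at 10, *Ppm1h*, *Epha7* and *Slc1a2* stayed first. These genes were picked for this pattern, which is therefore no finding about them, and their differences in the *Mtg8* table ran from -0.37 (*Epha7*) to 0.29 (*Ppm1h*), beside 0.09 for *Ntm*.

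Cell type markers moved beside these results. All 11 MGE interneuron markers used were detected and summed to 43087 to 53448 normalized counts in *Lhx6* controls and 29702 to 50388 in mutants, and *Sst* and *Lhx6* fell while *Dlx5* and *Dlx6* rose. That sum holds the targeted gene *Lhx6*, at a mean of 7247 in controls and 331 in mutants, and *Sst*, at 11499 and 1388. Of the 11 markers, 7 had a positive difference, so the lower sum is not read as fewer MGE cells. The 4 markers of caudal ganglionic eminence interneurons in the table summed to 1150 to 1341 in controls and 1311 to 2339 in mutants, and *Htr3a* fell by limma (limma adjusted p = 0.0451). The other 3 were *Nr2f2*, higher in every mutant than in every control (0.88, limma adjusted p = 0.0676), *Sp8* (1.03, limma adjusted p = 0.291) and *Prox1* (-0.59, limma adjusted p = 0.664), and of the 4 DESeq2 called 3 and edgeR 0. The 6 markers of subpallial projection neurons summed to 717 to 1197 and 1175 to 2603, with 0 called by limma, 3 at an unadjusted p under 0.05 (12.7% of all genes), 1 by DESeq2 and 0 by edgeR. The 8 markers of the pyramidal lineage, which the sort should leave out, summed to 13896 to 19592 and 11072 to 15314. Of these, *Neurod6* had a mean of 9961 in controls, beside 7247 for *Lhx6*, and of 7855 in mutants. The libraries thus held RNA of pyramidal-lineage genes. The 4 red blood cell genes summed to 5867 to 58166 and 1695 to 20186, the 7 markers of cycling progenitors to 4135 to 5177 and 4190 to 8179, and the 6 of microglia to 49.6 to 159 and 11.6 to 446. Of the pyramidal and progenitor markers limma called 0 and edgeR 0, DESeq2 called 1 in each list, and 3 and 1 had an unadjusted p under 0.05. *Fezf2* was lower in every mutant than in every control (-0.56) and *Sox2* higher (0.95), both named after their values were seen and neither called by limma. In the *Mtg8* table the MGE markers summed to 67903 to 75095 in controls and 43808 to 60049 in labelled mutants, without overlap. *Sst*, part of that sum and reported by the paper as reduced in *Mtg8* mutants, averaged 16695 ± 2080 in controls and 6615 ± 1259 in labelled mutants (SD; limma adjusted p = 0.0713). It was 1 of 4 of the 11 markers that were lower in every labelled mutant than in every control. The sums of the cycling progenitor markers did not overlap either, at 3328 to 3611 in controls and 4158 to 4204 in labelled mutants. Of these 7 markers, only 1 was itself higher in every labelled mutant than in every control, and *Sox2* went the other way (-0.34). Of the pyramidal markers, 8 of 8 had a positive difference. Of these 3 lists limma and edgeR called 0 genes in that table, and DESeq2 called 1, 0 and 1. An unadjusted p under 0.05 was found for 4 of 11, 2 of 7 and 3 of 8 genes, and for 5.49% of all genes in that table. No marker listed in a table was at 0 in every library of it, but *Vip*, *Chat* and *Alas2* were listed in neither table. Whether genes without reads had been left out of the deposited values is not known. The part of these markers in the values of *Ntm* and *Negr1* was not tested.

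The differences of the 5 members in the *Lhx6* table were computed again under 10 other settings and with each of 9 libraries left out. These fits use the values that chose the family and describe only how far the sizes depend on a setting or a library. *Ntm* lay between 2.27 and 2.54. *Negr1* lay between 0.59 and 1.22, *Opcml* between -1.40 and -0.46, and *Lsamp* between -0.59 and -0.13. *Iglon5* lay between -0.29 and 0.31 and changed sign in 2 of the 19.

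**Figure D5:**
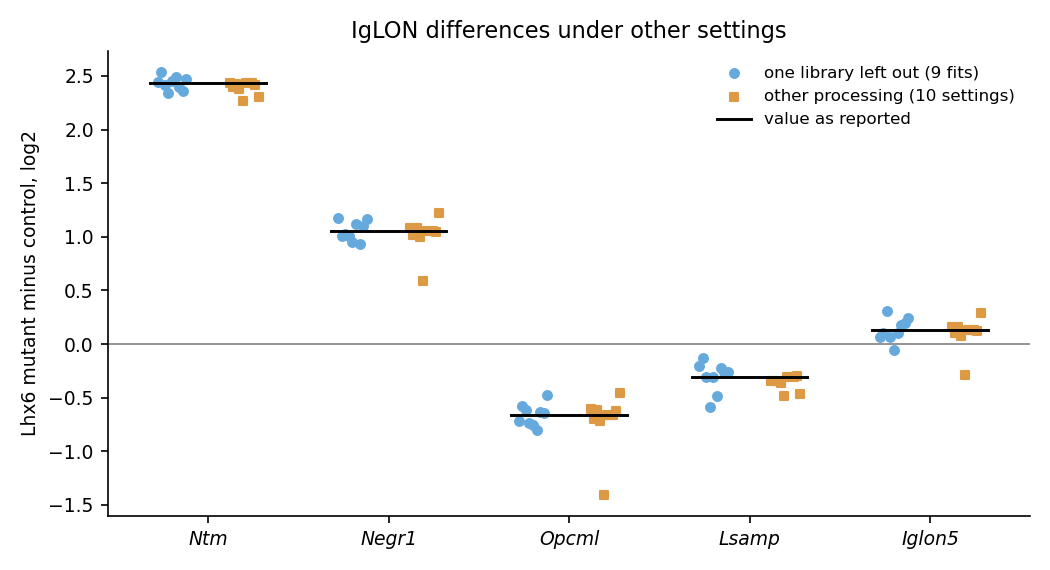
Difference between *Lhx6* mutants and controls (log2, vertical axis) for each IgLON gene, as reported (black lines), with 1 library left out (circles, 9 fits) and under other processing (squares, 10 settings). *Ntm* lies between 2.27 and 2.54, and the square far below the others for *Negr1* (0.59) and for *Opcml* (-1.40) is the fit with the style of the library name.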

How the data were processed

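RNA-seq was performed on 15 libraries, 1 per embryo, from NEBNext low-input cDNA sequenced as single reads. Per the submitters' processing notes and methods, reads were trimmed with fastp 0.20.1, aligned with STAR 2.7b to GRCm38.p6 and counted per gene with featureCounts 1.6.4 and GENCODE M23, and sex-linked genes were filtered out. The paper made this filter because the sexes were unevenly spread over its control and mutant samples. The part of sex in the values of the members was not tested. The strand setting of the counting is not given in the sources used here. The deposited signal of a gene is its read count over the DESeq2 size factor of the library, as the authors computed it separately for each table. The gene length beside it was used for levels per kb. The tables also hold the authors' own DESeq2 comparison (mean, log2 fold change, standard error, statistic and p-values), which was not used.

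Values were whole multiples of 1 read in every library (100% of values within 0.01), so reads were recovered. Groups were compared with limma 3.58.1 in R 4.3.3, using its intensity trend, on log2(normalized count + 1). Genes averaging 10 or more entered, and tests were two-sided, with Benjamini-Hochberg adjustment over the genes of a table and calls at an adjusted p under 0.05. This called 172 genes higher and 114 lower in the *Lhx6* table. On recovered reads DESeq2 1.42.0 called 540 higher and 271 lower there, and edgeR 4.0.16 called 169 and 111. The pseudocount makes differences of low genes smaller than their fold change. Scripts were tested on simulated data. Alternatives were other pseudocounts, filters and scalings, both count tests, a replicate block, the library name style as a covariate and each library left out.

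The members and all lists were chosen with earlier results of these data known. Named genes were the members, the targeted genes, called genes of each list with up to 3 abundant uncalled ones, called neighbours within 1 Mb, and the 5 genes most like *Ntm*. Outside this rule, *Cntn1*, *Fezf2* and *Sox2* were named after their values were seen. A marker of the MGE list is not reported here. Sequences were from RefSeq. Libraries held 12218422 to 22053032 reads.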

Additional observations from a re-analysis of the deposited data

Results flagged for a closer look

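In 10 sets of values, 5 genes in the 4 *Lhx6* controls and in the 5 *Lhx6* mutants, 3 had a single library far from the others. Chance gives about 1 such set in 20. For *Negr1* it was control 1 with 1096 normalized counts, whose gap to the nearest control was 0.887 of the range of the group. For *Iglon5* it was control 3 with 106, with a gap of 0.866 of the range. For *Lsamp* it was mutant 2 with 274, with a gap of 0.763 of the range.

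Each *Lhx6* mutant lay above the control mean of *Negr1* and each library labelled *Mtg8* mutant below that of its table. The difference in the *Mtg8* table was -0.33 (log2), which was not called and where the groups overlapped. The difference between the tables was not tested.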

How the results depend on the processing

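For *Negr1* in the *Lhx6* table (1.05, log2), the call was lost with the library name style as a covariate (0.59) and with the replicate block (1.22), and leaving out 1 library gave 0.93 to 1.18. *Iglon5* there turned to -0.29 with the name style and to -0.051 without mutant 1, within -0.051 to 0.31 over the fits that left out a library. *Ntm* in the *Mtg8* table turned to -0.12 without control 4 and -0.19 without labelled mutant 2, within -0.19 to 0.34. The wider adhesion list had 2 higher genes in the *Lhx6* table, and 4 by DESeq2, 1 without a filter on low values, 0 with the name style, 0 with the replicate block and 1 to 4 with a library left out. Its 1 lower gene became 3 by DESeq2, 2 with TMM factors, 2 with equal totals, 2 with a minimum mean of 50, 2 with a pseudocount of 10 and 1 to 2 with a library left out. The 2 higher neighbours became 6 by DESeq2, 1 with a minimum mean of 50, 0 with the name style, 0 with the replicate block and 0 to 3 with a library left out. In the *Mtg8* table the replicate block gave 2 higher genes of the wider list, in place of 0. The causes were not tested.

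Same-numbered libraries did not deviate together in the *Lhx6* table (correlations across genes of their deviations from the group means -0.15, 0.00 and 0.07), and in the *Mtg8* table only 2 numbers were shared (0.14 and 0.16), so the replicate number was not taken as a pairing. With 1 undated mutant, the name style rests on that library. *Iglon5* had 13 to 47 reads per library in the *Mtg8* table, and how much of its spread is counting error was not tested.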
